A study of Mus musculus with 16 samples.

Results

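The 10 genes described here were much higher in diabetic than in control glomeruli, where they were at or near 0: Prss22, Msln, Psca, Plekhs1, Kdf1, Foxq1, AI593442, Entpd3, Fut1 and B4galnt3. They are 10 of the 24722 genes in the glomerular table and 10 of the 19041 genes found in both the glomerular and the cortex table. They were selected on the measured glomerular values themselves, low in control and much higher in diabetic libraries, with no numeric threshold. The glomerular difference is therefore given as a description and was not tested for them. The cortex values took no part in that choice as a difference between groups, so the 7 genes that passed the filter on low counts in cortex were tested there. Glomeruli are the capillary tufts that filter blood. They hold podocytes, mesangial and endothelial cells inside a capsule of parietal epithelial cells. Renal cortex holds these tufts among a much larger mass of tubules.

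RNA was sequenced from isolated glomeruli and renal cortex of diabetic wild-type mice aged 24 weeks, made diabetic by HFD/STZ, a high-fat diet combined with streptozotocin, which destroys pancreatic beta cells. They were set against glomeruli and cortex of control wild-type mice of the same age. The groups do not separate the diet, streptozotocin and the diabetic state. Each of the 4 groups had 4 libraries, all labelled batch 1. Whether the libraries of a group stem from separate animals is not labelled. The p-values therefore reflect the spread between these libraries alone, and that spread may be technical. Total counts were 36339294 to 40696477 in diabetic glomeruli, 40001932 to 41876031 in control glomeruli, 60628981 to 72352656 in diabetic cortex and 57473100 to 69947387 in control cortex. Diabetic glomerular libraries 1 and 4 had nearly the same counts, with a chi-square per gene of 5.36, while the remaining pairs of that group gave 50.4 to 74.0. Control glomerular libraries 3 and 4 did too, with 2.39, the remaining pairs giving 35 to 64.4. Each such pair was summed and counted as 1 sample, named 1+4 or 3+4, which left n = 3 glomerular samples a group. Podocyte markers summed to 2595 to 4945 CPM in diabetic glomeruli and 5258 to 6918 CPM in control glomeruli, against 489 to 552 CPM in diabetic cortex and 557 to 596 CPM in control cortex. CPM are counts relative to the TMM-adjusted library size. FPKM, which also divide by gene length, are the authors' values and are the scale for levels set between genes or tissues unless CPM are named.

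The genes belong to several families known from surface and ductal epithelia. Prss22 encodes a tryptase-like serine protease of airway and other epithelia. Msln encodes mesothelin and Psca a Ly6-family protein, both anchored to the outer cell surface by a lipid tail. Fut1 encodes the fucosyltransferase that makes the H antigen, and B4galnt3 an enzyme that adds N-acetylgalactosamine to make LacdiNAc ends on glycans. Entpd3 encodes an ectonucleotidase, an enzyme that breaks down nucleotides outside the cell. Kdf1 encodes a factor that restrains division and promotes differentiation of keratinocytes in mouse skin, Foxq1 is a forkhead transcription factor, and Plekhs1 encodes a protein with a pleckstrin homology domain. No role is given here for AI593442. On GRCm38 the genes lie apart on chromosomes 4, 6, 7, 9, 13, 15, 17 and 19. Prss22 (chr17:23993534-23998100, minus strand) and Msln (chr17:25748613-25754378, minus strand) share a chromosome, as do AI593442 (chr9:52673042-52679780, minus strand) and Entpd3 (chr9:120539818-120568327, plus strand). The other positions are chr15:74714839-74717069 for Psca, chr19:56461640-56486752 for Plekhs1, chr4:133518963-133530790 for Kdf1, chr13:31556134-31560976 for Foxq1 and chr7:45617289-45621059 for Fut1, all on the plus strand. B4galnt3 spans chr6:120203073-120294559 on the minus strand. The exons of Foxq1 are overlapped on the opposite strand by A530084C06Rik and those of B4galnt3 by D330020A13Rik. Whether the counting used strand is not given in the sources used here, so reads from these pairs cannot be told apart.

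The promoters of the genes were read for shared sequence. Their joint rise in glomeruli was the ground on which they were chosen, so it is no sign of shared control. A RefSeq promoter (GRCm38.p6) was found for 6 of the 10 genes, and the 250 bases before the RefSeq start were used. The RefSeq starts of Fut1 and AI593442 lie inside the GENCODE spans given above, so their windows do too. Those shown cover the range from few to many CpG and the motifs that were found. Plekhs1 has the lowest GC content, Fut1 and Entpd3 carry matches, and Kdf1 carries none. Capitals mark a match to the E-box CACCTG or to the AP-1 motif TGANTCA on either strand. These are Plekhs1 (chr19:56461387-56461636, plus strand), Fut1 (chr7:45617356-45617605, plus strand), Entpd3 (chr9:120539568-120539817, plus strand) and Kdf1 (chr4:133518713-133518962, plus strand).
Plekhs1: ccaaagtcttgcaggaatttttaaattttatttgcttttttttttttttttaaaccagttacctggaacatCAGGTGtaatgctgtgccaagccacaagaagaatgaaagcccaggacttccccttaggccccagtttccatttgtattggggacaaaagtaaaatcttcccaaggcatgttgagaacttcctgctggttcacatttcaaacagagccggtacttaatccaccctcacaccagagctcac
Fut1: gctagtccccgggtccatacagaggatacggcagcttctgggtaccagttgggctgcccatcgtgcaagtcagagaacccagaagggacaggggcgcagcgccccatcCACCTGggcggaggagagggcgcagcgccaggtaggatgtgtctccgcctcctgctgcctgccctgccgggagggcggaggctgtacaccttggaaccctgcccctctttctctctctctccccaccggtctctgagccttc
Entpd3: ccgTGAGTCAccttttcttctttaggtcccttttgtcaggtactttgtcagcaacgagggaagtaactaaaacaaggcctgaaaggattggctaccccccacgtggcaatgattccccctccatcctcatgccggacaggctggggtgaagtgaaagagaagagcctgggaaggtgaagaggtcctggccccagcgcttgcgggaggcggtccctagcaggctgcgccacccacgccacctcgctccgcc
Kdf1: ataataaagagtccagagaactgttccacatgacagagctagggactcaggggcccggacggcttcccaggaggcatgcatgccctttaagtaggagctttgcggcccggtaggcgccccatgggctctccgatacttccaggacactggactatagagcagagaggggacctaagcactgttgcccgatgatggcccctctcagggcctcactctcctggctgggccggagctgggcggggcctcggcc

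The Plekhs1 promoter stood apart in base composition, with 41.6% GC and 1 CpG, against a median of 52.4% GC and 6 CpG over 32851 promoters of this length. The promoters of Entpd3 (58.8% GC), B4galnt3 (60.8%), Kdf1 (61.6%), Fut1 (65.6%) and AI593442 (66.8%) held 10 to 12 CpG each. The E-box was found in 3 of the 6, at -179 to -174 of Plekhs1, -142 to -137 of Fut1 and -81 to -76 of B4galnt3, and 17.2% of all promoters held it. The AP-1 motif was found in Entpd3 alone, at -247 to -241, and 6.75% of all promoters held it. No window of the 6 held the TEAD motif GGAATG (12.6% of all promoters), the GRHL motif ACCGGTT (0.831%), the HNF1 motif GTTAAT (6.43%), the forkhead motif GTAAACA (3.17%) or the TATA box TATAAA (12.4%). No matches overlapped each other. A match is only a run of letters, and its absence says only that these letters are not in this window.

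Prss22 and Msln reached the highest levels of the set in diabetic glomeruli. Prss22 had 98.7, 121 and 55.6 CPM in diabetic samples 1+4, 2 and 3, against 0.0537, 0.635 and 0.0636 CPM in control samples 1, 2 and 3+4. Every diabetic sample lay far above the highest control sample, which was control 2. The log2 fold change of Prss22 was 8.74 ± 0.74 (SE, n = 3 each, a description). Msln had 99.3, 121 and 31.8 CPM in diabetic samples 1+4, 2 and 3, against 0.242, 0.688 and 0.229 CPM in control samples 1, 2 and 3+4. Diabetic sample 3 was the lowest of its group for both genes, and control 2 the highest of its own. The log2 fold change of Msln was 7.86 ± 0.73. In FPKM Prss22 averaged 60.0 ± 22.5 in diabetic glomeruli and 0.144 in control glomeruli, and Msln 41.5 ± 23.4 in diabetic glomeruli and 0.167 in control glomeruli. In bulk tissue, more cells that express a gene and more RNA per cell cannot be told apart.

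Plekhs1 and AI593442 had almost no reads in control glomeruli. Plekhs1 had 58.7, 72.3 and 21.8 CPM in diabetic samples 1+4, 2 and 3, against 0, 0.0529 and 0.0254 CPM in control samples 1, 2 and 3+4. That is 8877 counts in the diabetic group against 4 in the control group, a ratio of 2036 on library size (95% counting interval 795 to 7476). AI593442 had 25, 29.8 and 33.5 CPM in diabetic samples 1+4, 2 and 3, against 0.0537, 0.0794 and 0.0127 CPM in control samples 1, 2 and 3+4. It was the one gene of the set whose highest diabetic value was in sample 3. Its log2 fold change was 9.44 ± 0.37.

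Entpd3, Fut1 and Psca had 1 count or none over the control glomeruli. Entpd3 had 6.30, 7.28 and 4.55 CPM in diabetic samples 1+4, 2 and 3 and no count in any control sample. With 1025 diabetic counts against 0, it was at least 314-fold higher in diabetic glomeruli, taking 3 counts over the control group as the floor. Fut1 had 8.01, 10.9 and 5.50 CPM in diabetic samples 1+4, 2 and 3, against a single count over the control group, a ratio of 1250 (95% counting interval 224 to 49399). Psca had 2.24, 2.31 and 0.50 CPM in diabetic samples 1+4, 2 and 3, and also 1 count over the control group, a ratio of 280 (95% counting interval 49.9 to 11090). Psca varied most among the diabetic samples, with its highest value 4.61 times its lowest. Such intervals and floors take account of counting error only, because reads lacking molecular identifiers may copy 1 molecule.

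Kdf1, Foxq1 and B4galnt3 had low but measurable control levels. Kdf1 had 19.3, 19.3 and 13.7 CPM in diabetic samples 1+4, 2 and 3, against 0.188, 0.132 and 0.0890 CPM in control samples 1, 2 and 3+4. Foxq1 had 17.0, 16.2 and 16.2 CPM in diabetic samples 1+4, 2 and 3, against 0.269, 0.450 and 0.394 CPM in control samples 1, 2 and 3+4. Foxq1 was the steadiest of the set, its highest diabetic value being 1.05 times its lowest. B4galnt3 had 18.7, 17.5 and 9.84 CPM in diabetic samples 1+4, 2 and 3, against 0.215, 0.291 and 0.254 CPM in control samples 1, 2 and 3+4. The log2 fold changes were 7.06 ± 0.32 for Kdf1, 5.46 ± 0.22 for Foxq1 and 5.91 ± 0.34 for B4galnt3. By fitted fold change Foxq1, the last of the set, ranked 193 among 15238 genes tested.

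All 10 genes passed the filter on low counts in glomeruli, where the median log2 fold change was 8.30 for them (8.08 with Entpd3 set at its bound) and 0.0096 for all genes tested. All 10 had every diabetic sample above every control sample, which held for 26.6% of all genes tested, while 27.6% had every diabetic sample below. By edgeR's quasi-likelihood test (Benjamini-Hochberg adjusted p under 0.05), 19.4% of all genes were called higher and 18.2% lower in diabetic glomeruli. The same values chose the 10 genes, so nothing is read from these counts.

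**Figure D1:**
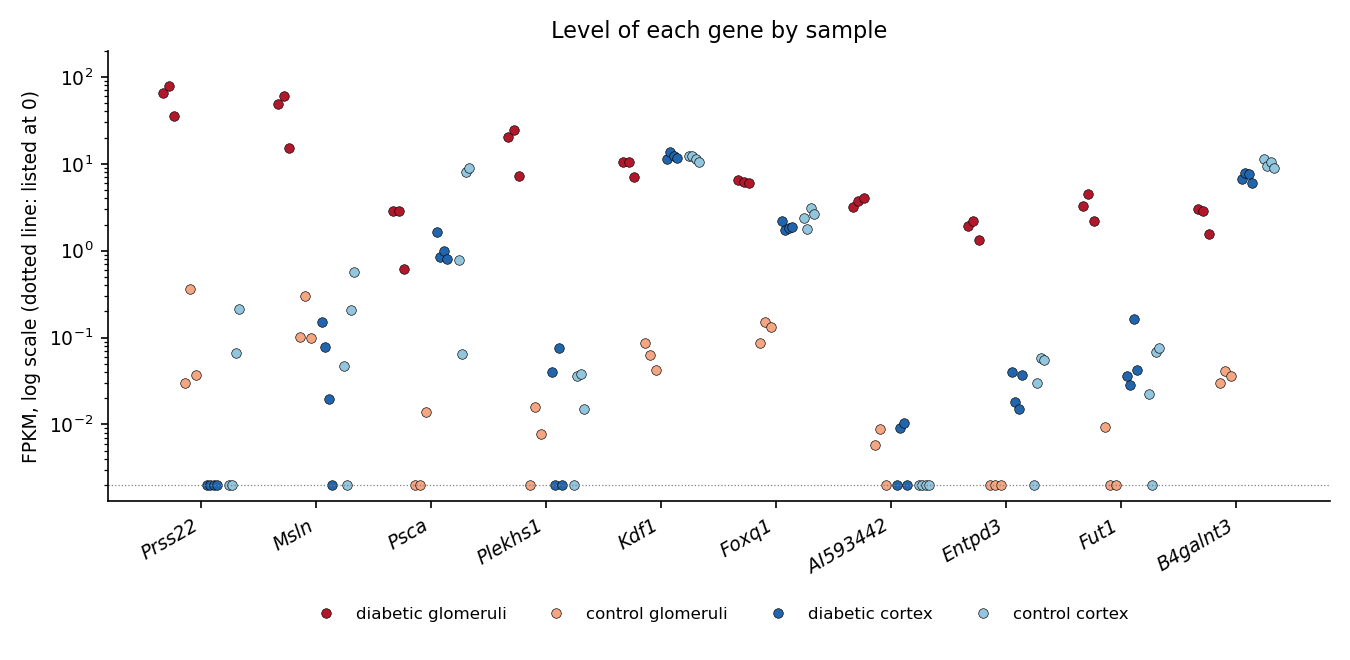
Level of each of the 10 genes in FPKM on a log scale, with values of 0 set on the dotted line, in diabetic glomeruli (n = 3), control glomeruli (n = 3), diabetic cortex (n = 4) and control cortex (n = 4), 1 point a sample. Diabetic glomeruli stand above control glomeruli for every gene, and diabetic glomeruli stand below diabetic cortex for Kdf1 (10.5 FPKM or less in diabetic glomeruli, 11.5 FPKM or more in diabetic cortex) and B4galnt3 (means of 2.48 FPKM in diabetic glomeruli and 7.02 FPKM in diabetic cortex).

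Whether cortex tissue in the glomerular preparations could account for these levels was examined by setting each gene beside diabetic cortex. No test was made, because the glomerular values had chosen the genes. Of the 10 genes, 6 were more than 10 times as abundant in diabetic glomeruli as in diabetic cortex. Prss22 averaged 60.0 FPKM in diabetic glomeruli and had no count in any of the 4 diabetic cortex libraries. It was at least 8819-fold higher in diabetic glomeruli, on library totals with a floor of 3 counts over the cortex group. AI593442 averaged 3.66 ± 0.46 FPKM in diabetic glomeruli and 0.00488 ± 0.00566 FPKM in diabetic cortex, where its 4 libraries held 8 counts in all. Msln averaged 41.5 FPKM in diabetic glomeruli and 0.0621 FPKM in diabetic cortex, a ratio of 669 (309 in CPM). For Plekhs1 the means were 17.4 FPKM in diabetic glomeruli and 0.0290 FPKM in diabetic cortex, a ratio of 601 (371 in CPM). Entpd3 averaged 1.82 FPKM in diabetic glomeruli and 0.0277 FPKM in diabetic cortex, a ratio of 65.6 (41.5 in CPM). Fut1 averaged 3.30 FPKM in diabetic glomeruli and 0.0682 FPKM in diabetic cortex, a ratio of 48.4 (32.9 in CPM). These 6 genes are therefore nearly absent from the cortex libraries themselves.

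The other 4 genes averaged 1.08 FPKM or more in diabetic cortex. Foxq1 averaged 6.28 ± 0.29 FPKM in diabetic glomeruli and 1.91 ± 0.21 FPKM in diabetic cortex, a ratio of 3.29. That ratio was 1.37 in CPM, and the gene length implied by the FPKM values was 2807 bases in the glomerular table and 5240 bases in the cortex table. Psca averaged 2.12 ± 1.31 FPKM in diabetic glomeruli and 1.08 ± 0.40 FPKM in diabetic cortex (ratio 1.97, in CPM 1.39), and the samples overlapped. Kdf1 averaged 9.34 ± 1.91 FPKM in diabetic glomeruli and 12.3 ± 1.00 FPKM in diabetic cortex, a ratio of 0.76 (0.46 in CPM). B4galnt3 averaged 2.48 ± 0.82 FPKM in diabetic glomeruli and 7.02 ± 0.85 FPKM in diabetic cortex, a ratio of 0.35 (0.45 in CPM). For both, every diabetic glomerular sample lay below every diabetic cortex library. In all, 7 of the 10 genes had every diabetic glomerular FPKM above every diabetic cortex FPKM, which held for 63.8% of the 14450 joined genes tested. More than 10-fold above diabetic cortex were 8.52% of those joined genes, and 32.3% of the 164 other joined genes whose glomerular log2 fold change was at least that of Foxq1.

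The rise of each gene over the control glomerular mean was then expressed as a percentage of its diabetic cortex level. These percentages rest on FPKM, and the implied gene lengths differed between the tables. In the glomerular and cortex tables they were 1998 and 2574 bases for Kdf1, and 6646 and 4088 bases for B4galnt3. In samples 1+4, 2 and 3 it was 84.7, 84.4 and 57.6% for Kdf1, and 43.0, 39.9 and 21.4% for B4galnt3. It was 263, 269 and 56.1% for Psca, and 339, 320 and 309% for Foxq1. For Msln, Plekhs1, AI593442, Entpd3 and Fut1 it lay between 3180 and 96302%. Proximal tubule markers, by contrast, rose by a median of 9.46, 0.120 and 4.51% of their diabetic cortex level in the same samples (16 genes at 1 FPKM or more in diabetic cortex), and markers of the loop, distal tubule and collecting duct by a median of 26.7, 0.375 and 10.6% (18 genes). The most any proximal marker rose was 21.9% in sample 1+4, 1.57% in sample 2 and 9.28% in sample 3. For the distal group the most was 205, 36.2 and 85.9%. Sample 2 had the lowest tubule marker sums of the diabetic samples. The smallest rise there among the 9 genes with a cortex count was that of B4galnt3. It was 39.9%, against 36.2% for the highest distal marker, with the differing implied lengths given above. The genes had been chosen for a large rise in glomeruli. Their order against the markers is therefore partly set by that choice, and it was not tested. In samples 1+4 and 3 the rises of Kdf1 and B4galnt3, and of Psca in sample 3, lay below that of the highest distal marker. Other lists had larger rises against their own cortex level. Medians in samples 1+4, 2 and 3 were 242, 279 and 262% for 18 injured tubule genes, 189, 487 and 203% for 8 parietal markers, and 545, 643 and 298% for 3 urothelium and papillary surface markers. These medians lay above the rises of Kdf1 and B4galnt3 in every sample, and rises of up to 13271% occurred among the injured tubule genes in sample 2.

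**Figure D2:**
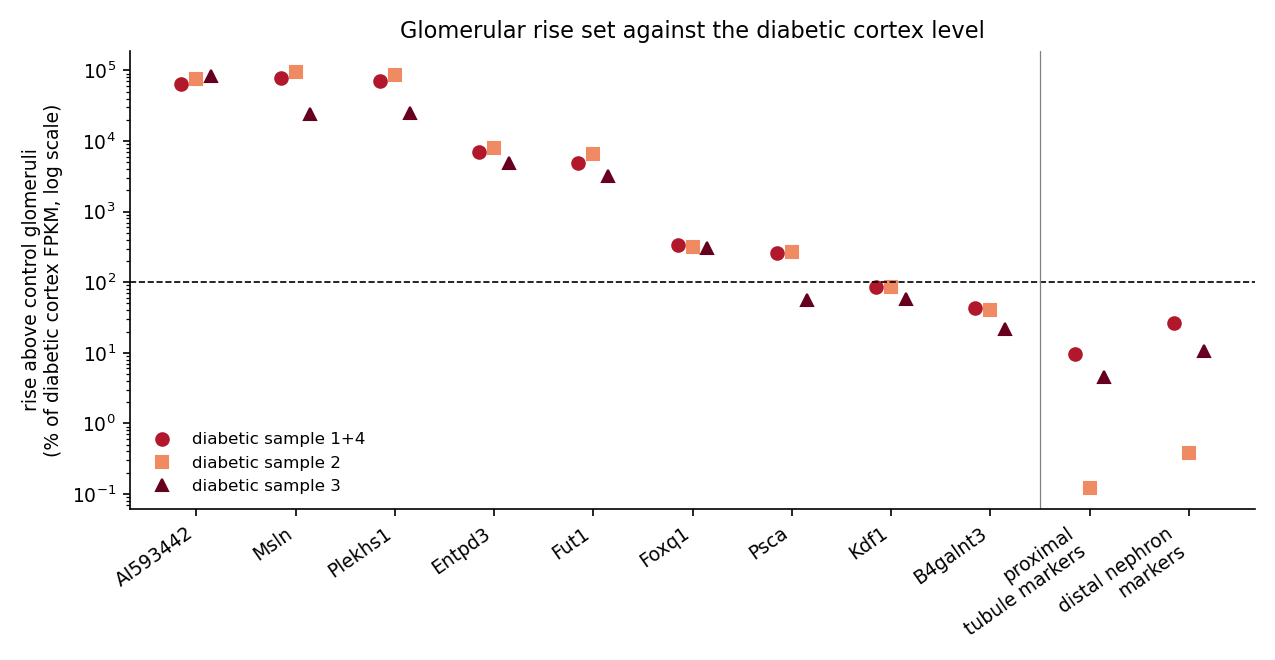
Rise above the control glomerular mean in each diabetic glomerular sample, as a percentage of the mean diabetic cortex FPKM on a log scale, for the 9 genes with any diabetic cortex count and, right of the line, the median of 16 proximal tubule and 18 distal nephron markers. The dashed line marks 100%, the cortex level itself. Kdf1 lies at 57.6 to 84.7% and B4galnt3 at 21.4 to 43.0%, and the proximal median is at most 9.46%. The genes had been chosen for a large rise in glomeruli, so their place above the markers is partly set by that choice.

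The 3 diabetic glomerular samples also differed in the order of their levels. Of the 10 genes, 7 were highest in sample 2 and 9 were lowest in sample 3, against 33.8% and 37.1% of all genes tested. The lowest value in sample 3 was also seen for all 12 podocyte markers, 10 of which were highest in sample 1+4. The summed level of the 10 genes was 353, 418 and 193 CPM in diabetic samples 1+4, 2 and 3, against 1.05, 2.33 and 1.08 CPM in control samples 1, 2 and 3+4. All 16 proximal tubule markers were highest in sample 1+4 and lowest in sample 2. Their sum was 1454, 127 and 692 CPM in diabetic samples 1+4, 2 and 3, against 92.8 to 121 CPM in control samples. The distal marker sum was 1832, 126 and 863 CPM in diabetic samples 1+4, 2 and 3, against 94.2 to 117 CPM in control samples. In sample 2, where most of the 10 genes were highest, both tubule sums thus lay just above the control range.

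**Figure D3:**
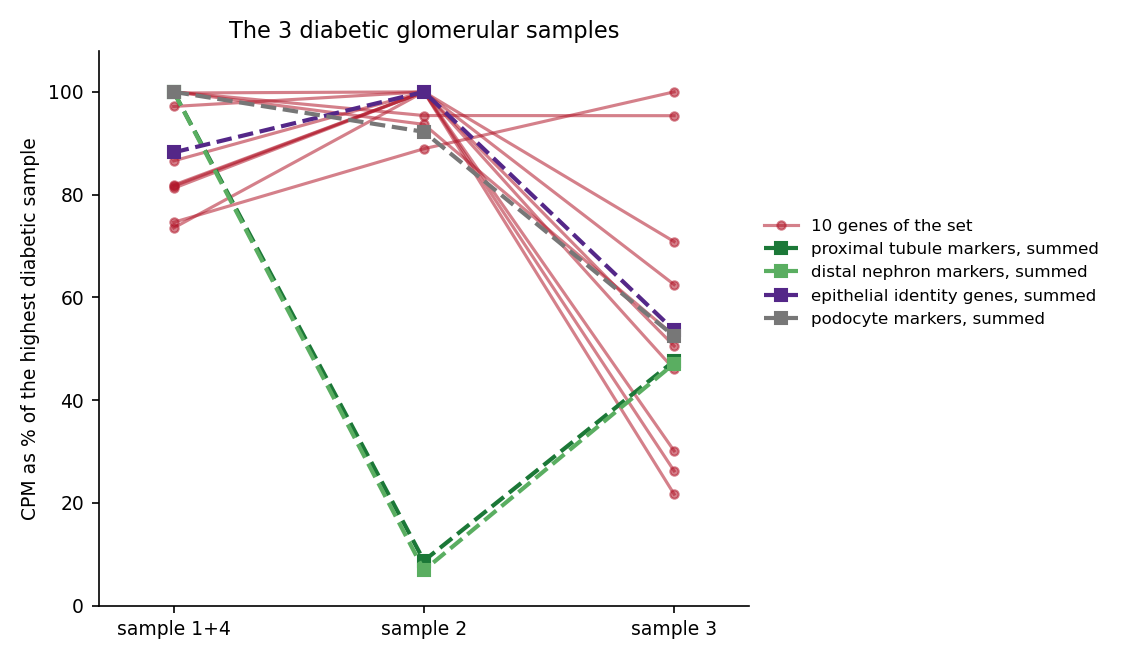
CPM in the 3 diabetic glomerular samples as a percentage of the highest of them, for each of the 10 genes (thin lines) and for 4 summed marker lists (dashed lines). The lines join values of 1 gene or list and imply no order of samples. Sample 2 holds the highest value for 7 genes and for the epithelial identity sum, and the lowest for both tubule sums.

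In cortex 7 of the 10 genes passed the filter on low counts, and B4galnt3 was the one called, lower in diabetic cortex. No other of the 10 was called by edgeR or DESeq2, and none was higher at an unadjusted p under 0.05 in edgeR. Their median log2 fold change was -0.41, against -0.0036 for all genes tested. Of all 19228 genes tested in cortex, 10.8% were called higher and 9.29% lower. Every diabetic library lay above every control library for 13.5% of genes and below for 11.4%. Of the 10 genes, B4galnt3 alone had groups that did not overlap.

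B4galnt3 had 27.8, 30.8, 29.9 and 24.6 CPM in diabetic cortex libraries 1 to 4, against 46.9, 41.3, 43.8 and 34.6 CPM in control cortex libraries 1 to 4. The highest diabetic library lay below the lowest control library. B4galnt3 fell to 28.3 ± 2.73 CPM in diabetic cortex, against 41.6 ± 5.22 CPM in control cortex (SD, n = 4 each), a log2 fold change of -0.56 ± 0.10 (adjusted p = 0.00481, edgeR). In glomeruli the same gene was higher in every diabetic sample.

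Foxq1 had 11.9, 8.72, 9.10 and 9.87 CPM in diabetic cortex libraries 1 to 4, against 12.5, 9.92, 16.7 and 13.3 CPM in control cortex libraries. The groups overlapped, and the log2 fold change of -0.41 ± 0.16 did not pass the threshold (unadjusted p = 0.029, adjusted p = 0.103, edgeR). Without control cortex library 2 it was -0.52 and passed (adjusted p = 0.0413, edgeR). Kdf1 was level, with 30.4, 34.0, 30.4 and 29.8 CPM in diabetic cortex and 31.7, 33.2, 29.7 and 25.9 CPM in control cortex. On the log2 scale Kdf1 differed by 0.05 ± 0.08 (adjusted p = 0.738, edgeR).

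Psca and Msln depended on 2 control cortex libraries. Psca had 1.59, 0.771, 0.877 and 0.761 CPM in diabetic cortex libraries 1 to 4, against 0.737, 0.0740, 7.58 and 8.07 CPM in control cortex libraries 1 to 4. Msln had 0.552, 0.280, 0.0626 and 0 CPM in diabetic cortex, against 0.189, 0, 0.747 and 1.87 CPM in control cortex. Control libraries 3 and 4 were the highest of all cortex libraries for both genes, and the only ones with any Prss22 count. Log2 fold changes were -2.04 ± 1.10 for Psca (adjusted p = 0.243, edgeR) and -1.63 ± 1.31 for Msln (adjusted p = 0.434, edgeR). Without those libraries, an alternative chosen after seeing the data, they were 1.29 for Psca (adjusted p = 0.262) and 1.22 for Msln (adjusted p = 0.649, edgeR). Urothelium and papillary surface markers summed to 40.2 and 33.7 CPM in control cortex libraries 3 and 4, against 8.90 and 1.11 CPM in control libraries 1 and 2, and 12.4 to 24.1 CPM in diabetic cortex. Their part in the Psca and Msln values was not tested.

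The other 5 genes were at or near the limit of detection in cortex. Plekhs1 (0 to 0.282 CPM in diabetic, 0 to 0.167 CPM in control cortex) had a log2 fold change of 0.23 ± 1.23 (adjusted p = 0.924, edgeR). Entpd3 (0.0626 to 0.170 CPM in diabetic, 0 to 0.249 CPM in control cortex) had one of -0.35 ± 0.83 (adjusted p = 0.812, edgeR). Prss22, AI593442 and Fut1 did not pass the filter. Prss22 had no diabetic count against 28 control counts, 9.93-fold lower in diabetic cortex if 3 counts are taken for the diabetic group. Of the 28, 21 were in control library 4 and 7 in control library 3. Without library 4, an alternative chosen after seeing the data, it was 3.46-fold lower. AI593442 had 8 diabetic counts against none, 4 in each of diabetic libraries 2 and 3. Diabetic libraries 1 and 4 had 0, as had every control library. With 3 counts taken for the control group it was 2.51-fold higher. Such figures leave out the counting error of the group that has counts. Fut1 had 53 diabetic counts against 35 control counts, a ratio of 1.42 (95% counting interval 0.911 to 2.25). Diabetic library 3 held 31 of the 53, and without it, likewise chosen after seeing the data, the ratio was 0.776 (0.434 to 1.36). These 3 genes were not tested in cortex.

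**Figure D4:**
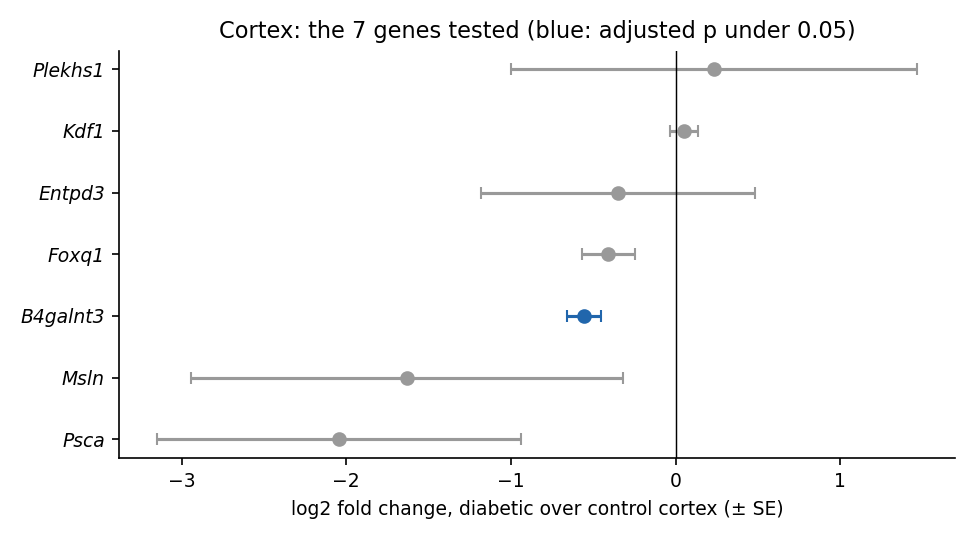
Log2 fold change of diabetic over control cortex with its standard error for the 7 genes tested there (edgeR, n = 4 each). B4galnt3 (-0.56 ± 0.10) is the one gene past the adjusted threshold, and the bars of Plekhs1, Kdf1 and Entpd3 cross 0.

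Genes with related roles were then counted in lists that hold none of the 10 genes. The lists were chosen with earlier results of these data known, so they describe the setting of the 10 genes and support nothing about them. Epithelial identity and junction genes, such as keratins, claudins and the regulators Grhl1 and Grhl2, moved almost as a block in glomeruli. Of 35 tested, 34 were called higher in diabetic glomeruli, with a median log2 fold change of 5.48 (all genes, 0.0096), and Grhl1 was not called (-0.04, adjusted p = 0.945, edgeR). The transcription factor gene Grhl2 rose to 22.6 ± 5.63 CPM in diabetic glomeruli, against 0.167 ± 0.0828 CPM in control glomeruli (7.20 ± 0.42, adjusted p = 0.000347, edgeR). The keratin gene Krt7 rose to 522 ± 187 CPM in diabetic glomeruli, against 12.8 ± 3.63 CPM in control glomeruli. The tight junction gene Marveld3 rose to 14.9 ± 3.94 CPM in diabetic glomeruli, against 0.110 ± 0.0885 CPM in control glomeruli. In this list 27 of the 35 genes were highest in diabetic sample 2 and 33 were lowest in sample 3, the order seen in most of the 10 genes. In cortex 4 of 36 were called higher and 1 lower, with a median of 0.00. Krt8 rose there by 0.47 ± 0.06 (adjusted p = 0.00112) and the claudin gene Cldn8 fell by 0.41 on the log2 scale (adjusted p = 0.00104, edgeR). Without control cortex libraries 3 and 4, 10 were called higher.

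Genes of keratinocyte differentiation and desmosomes, listed as partners of Kdf1, also rose. Of 16 tested in glomeruli 13 were called higher, with a median of 4.50, and Klf4, Usp7 and Pkp1 were not called. The desmosomal cadherin gene Dsg2 rose to 58.8 ± 20.0 CPM in diabetic glomeruli, against 0.290 ± 0.299 CPM in control glomeruli (7.81 ± 0.62, adjusted p = 0.000579, edgeR). The desmosomal plaque gene Pkp3 rose to 36.3 ± 12.1 CPM in diabetic glomeruli, against 0.530 ± 0.321 CPM in control glomeruli. In cortex 3 of 16 were called higher (6 without control libraries 3 and 4), among them Sfn, which encodes 14-3-3 sigma (1.22 ± 0.17, adjusted p = 0.00137, edgeR).

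Among membrane-anchored and related serine proteases and their inhibitors, the family of Prss22, 6 of 8 tested were called higher in diabetic glomeruli and 2 lower. Prss8, which encodes prostasin, an activator of the epithelial sodium channel, rose to 27.1 ± 9.89 CPM in diabetic glomeruli, against 1.16 ± 0.243 CPM in control glomeruli. Tmprss2 rose to 33.1 ± 16.7 CPM in diabetic glomeruli, against 1.16 ± 0.375 CPM in control glomeruli. Spint2, which encodes a Kunitz inhibitor of such proteases, rose to 341 ± 82.1 CPM in diabetic glomeruli, against 36.6 ± 3.44 CPM in control glomeruli. Prss23 (-1.49 ± 0.25, adjusted p = 0.00516) and Prss12 (-2.55 ± 0.58, adjusted p = 0.0156, edgeR) fell. Unlike Prss22, Prss8 and Tmprss2 were highest in diabetic sample 1+4, at 38.4 and 52.3 CPM, where the tubule markers were highest. The call of Prss12 was lost without any one of control samples 1 and 3+4 or diabetic samples 1+4 and 2 (adjusted p 0.0504 to 0.0585, edgeR). It was also lost with diabetic library 2 alone (adjusted p = 0.103, edgeR), a setting with 1 diabetic sample, which is assumed to vary as the control samples do. In cortex 2 of 12 were called higher (1 to 4 over the alternatives) and 1 lower. Spint2 was higher (0.32 ± 0.07, adjusted p = 0.0121, edgeR). Prss8 was lower (-0.26 ± 0.07, adjusted p = 0.0299), a call lost without control library 2, without any one diabetic library and with the replicate block (adjusted p 0.0585 to 0.0904, edgeR).

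Of the Ly6 and uPAR family, mucins and related partners of Psca and Msln, 9 of 16 tested were called higher and 1 lower in glomeruli, with a median of 1.69. Muc1, a membrane mucin, rose to 15.9 ± 5.03 CPM in diabetic glomeruli, against 0.976 ± 0.209 CPM in control glomeruli (4.04 ± 0.32, adjusted p = 0.000558, edgeR). Lypd3 rose to 1.39 ± 0.406 CPM in diabetic glomeruli, against 0.0178 ± 0.0154 CPM in control glomeruli. Cd59a, which encodes an inhibitor of complement, fell by 0.68 on the log2 scale (adjusted p = 0.0235, edgeR). Cd59a was not called with library totals, FPKM, without control sample 1 or 3+4, or with diabetic library 2 alone (adjusted p 0.0609 to 0.0834, edgeR and limma). In cortex Ly6c2 and Ly6e were the 2 called, both higher (6 without control libraries 3 and 4). The call of Ly6e was lost without control library 1 or diabetic library 2 (adjusted p 0.0604 and 0.0558, edgeR).

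The enzyme families of Entpd3, Fut1 and B4galnt3 were mixed. Of 21 ectonucleotidases and purine receptors, 6 were called higher and 4 lower in diabetic glomeruli, with a median of 0.27. Higher calls were 10 with library totals in place of TMM scaling and 3 without control sample 3+4. They were 1 with diabetic library 2 alone. Entpd2 rose to 2.04 ± 0.0860 CPM in diabetic glomeruli, against 0.757 ± 0.0790 CPM in control glomeruli (not called with diabetic library 2 alone), and the receptor gene P2ry14 fell to 12.6 ± 4.66 CPM in diabetic glomeruli, against 55.2 ± 16.8 CPM in control glomeruli. In cortex 4 of 22 were called higher and 4 lower, among them Enpp1 (-0.47 ± 0.08, adjusted p = 0.00319, edgeR). Of 25 fucosyltransferases and genes of LacdiNAc or lacto-series glycans, 9 were called higher and 7 lower in diabetic glomeruli. B4galnt4, whose enzyme also makes LacdiNAc, rose to 0.662 ± 0.0480 CPM in diabetic glomeruli, against 0.00895 ± 0.0155 CPM in control glomeruli (6.20 ± 0.74, adjusted p = 0.00158, edgeR). B3gnt7 rose to 7.26 ± 0.196 CPM in diabetic glomeruli, against 0.0790 ± 0.0462 CPM in control glomeruli. Fut4 rose by 2.81 ± 0.27, while Fut10, Fut11, Pofut1 and Pofut2 fell. In cortex 4 of 27 were called higher and 4 lower. Fut9, which adds fucose to make the Lewis x structure, fell by 0.62 on the log2 scale (adjusted p = 0.0032) and B4galnt1, a ganglioside synthase gene, rose by 1.30 ± 0.20 (adjusted p = 0.00278, edgeR).

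More forkhead factors were called lower than higher, unlike Foxq1. Of the 15 that passed the filter in glomeruli, 4 were called higher and 8 lower, with a median of -0.35. The 8 were 5 with library totals, without control sample 1 or without diabetic sample 1+4, and 3 with diabetic library 2 alone. Foxc2, a podocyte factor, fell to 43.3 ± 0.669 CPM in diabetic glomeruli, against 111 ± 20.3 CPM in control glomeruli (-1.36 ± 0.14, adjusted p = 0.000982, edgeR). Foxf1 rose to 3.39 ± 1.34 CPM in diabetic glomeruli, against 0.132 ± 0.0709 CPM in control glomeruli. In cortex 1 of 17 was called higher and 1 lower. Foxi1, a factor of intercalated cells, fell by 0.56 on the log2 scale (adjusted p = 0.0227, edgeR). That call was lost with the replicate block and without control library 2, control library 3 or diabetic library 3 (adjusted p 0.057 to 0.0838, edgeR).

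**Figure D5:**
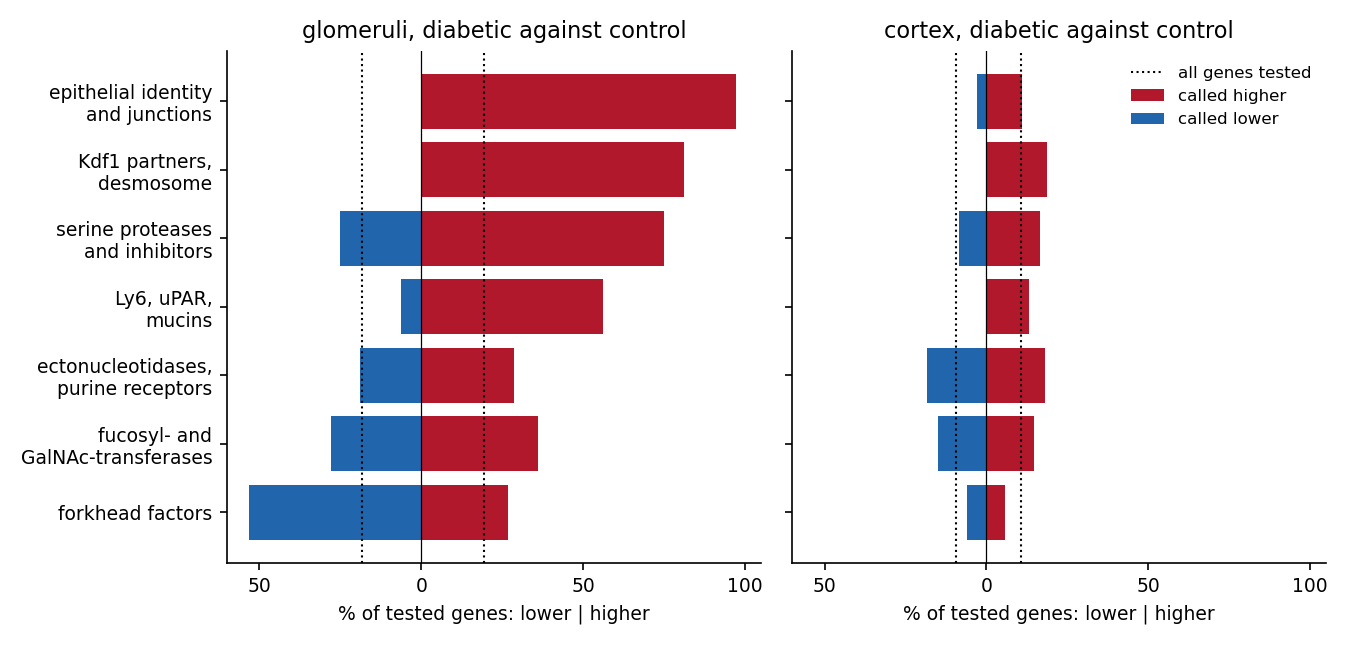
Share of tested genes called higher (right, red) and lower (left, blue) in diabetic samples for 7 lists of related genes, in glomeruli and in cortex (edgeR, adjusted p under 0.05), with the share among all genes as dotted lines (19.4% higher and 18.2% lower in glomeruli, 10.8% and 9.29% in cortex). Epithelial identity genes were called higher in 34 of 35 cases in glomeruli, and forkhead factors were called lower in 8 of 15.

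Markers of other epithelia that a glomerular preparation could hold were read beside the 10 genes. Their part in the rise of the 10 genes was not tested. Proximal tubule markers were called higher in diabetic glomeruli for 13 of 16 genes, but for 1 to 4 when any of control samples 1, 2 and 3+4 or diabetic samples 1+4 and 3 was left out, and for 1 with diabetic library 2 alone. Distal nephron markers were called higher for 11 of 16, for 5 without any one control sample or without diabetic sample 1+4, for 4 with diabetic library 2 alone and for 17 of the genes then tested without diabetic sample 2. In cortex 8 of 16 proximal markers were called lower, as were 8 of 18 distal markers, with 1 distal marker higher. Podocyte markers gave 1 higher and 4 lower of 12 in both tissues. None of the 4 lower calls in cortex was made with library totals, FPKM, the replicate block or without any one of control libraries 1 and 2 and diabetic library 2, and 1 or 2 were made without control library 3 or any one of diabetic libraries 1, 3 and 4. In glomeruli 0 were made with diabetic library 2 alone. Parietal epithelial cell markers gave 4 higher and 2 lower of 10, with sums of 2068 to 2421 CPM in diabetic glomeruli and 1881 to 2496 CPM in control glomeruli. Among them Scin rose to 191 ± 94.8 CPM in diabetic glomeruli, against 3.38 ± 2.04 CPM in control glomeruli, and Dkk3 fell to 196 ± 104 CPM in diabetic glomeruli, against 590 ± 126 CPM in control glomeruli (-1.59 ± 0.37, adjusted p = 0.0172, edgeR). Dkk3 was not called without control sample 1, diabetic sample 1+4 or diabetic sample 2 (adjusted p 0.0503 to 0.0579, edgeR).

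Of 14 urothelium and papillary surface markers only 7 passed the filter on low counts in glomeruli. Called higher were 5 of the 7, namely Krt20, Sprr1a, Ivl, Grhl3 and Upk3b. The markers summed to 104, 117 and 53.4 CPM in diabetic samples 1+4, 2 and 3, against 2.45 to 3.81 CPM in control samples. This was the order of the 10 genes' own sum. The mesothelium, injured tubule, epithelial identity, Kdf1 partner and serine protease sums had the same order, so it does not set this list apart. Most of the urothelium and papillary surface sum came from Krt20 and Sprr1a. They averaged 27.6 ± 9.44 and 49.9 ± 17.9 CPM in diabetic glomeruli, against 0.227 ± 0.0916 and 1.18 ± 0.815 CPM in control glomeruli. Krt20 is also on the list of injured tubule genes. The list also holds uroplakins, which define urothelium. Upk3a had 5 counts over the diabetic glomerular group and 0 over the control group, Upk2 was at 0.169 to 0.227 FPKM and Upk1a at 0.413 to 0.742 FPKM in diabetic glomeruli. Control levels of Upk2 and Upk1a are not given here, so no change is read for them. Upk3b, which mesothelium also expresses, was at 0.731 to 2.94 FPKM in diabetic glomeruli and 0.197 to 0.411 FPKM in control glomeruli. It was among the 5 called higher, a call lost in 1 of 15 alternatives. Upk1b and Upk3bl, also on the list, are not given here. Among the 10 genes, Psca was at 2.84, 2.90 and 0.608 FPKM in diabetic samples 1+4, 2 and 3. In cortex Krt20 averaged 6.15 ± 3.87 CPM in diabetic libraries and 0.387 ± 0.682 CPM in control libraries, and did not pass the threshold (adjusted p = 0.0632, edgeR). Of 9 mesothelial markers tested 5 were called higher and 4 lower, and sums were 594 to 1343 CPM in diabetic glomeruli and 532 to 983 CPM in control glomeruli. Krt7 and Krt19, which other epithelia also express, were among the higher, as were Upk3b, Gpm6a and Muc16. The call of Gpm6a was lost in 5 of 15 alternatives and that of Muc16 in 1. Among the lower, Nkain4 fell to 0.137 ± 0.0618 CPM in diabetic glomeruli, against 6.02 ± 3.47 CPM in control glomeruli (not called with diabetic library 2 alone). In cortex 2 of 8 mesothelial markers were called lower and 3 of 10 parietal markers higher. The mesothelial gene Lrrn4 was at 0 to 0.018 FPKM in diabetic glomeruli. Genes of injured tubule gave 11 higher and 1 lower of 19 in diabetic glomeruli and 12 higher of 19 in cortex. The secreted chaperone gene Clu rose to 3089 ± 274 CPM in diabetic glomeruli, against 57.9 ± 42 CPM in control glomeruli. In cortex Cdkn1a, a cell cycle inhibitor gene, rose by 3.56 ± 0.29 (adjusted p = 0.00046, edgeR).

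The genes whose profile was most like that of the set were found by correlation of log2(CPM + 0.1) with the mean standardised profile of the 10 genes, over the 14 glomerular and cortex samples and 12088 genes. Samples share their group, depth and table, so the correlations only describe likeness. The 10 closest were Susd1 (r = 0.979), Tbc1d2 (0.975), Etl4 (0.974), Rab15 (0.972), Slain1 (0.970), Krt7 (0.967), Mab21l4 (0.966), Macc1 (0.962), Ltk (0.958) and Ephb2 (0.957). Mab21l4 was at 50.3 CPM in diabetic glomeruli, 0.0314 CPM in control glomeruli, 4.16 CPM in diabetic cortex and 2.50 CPM in control cortex. The receptor tyrosine kinase gene Ephb2 was at 49.2 CPM in diabetic glomeruli, 1.45 CPM in control glomeruli, 8.63 CPM in diabetic cortex and 12.6 CPM in control cortex. Macc1 was at 22.2 CPM in diabetic glomeruli, 0.47 CPM in control glomeruli, 1.62 CPM in diabetic cortex and 2.04 CPM in control cortex. Unlike Prss22 and AI593442, each of these 3 genes was readily measured in cortex.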

How the data were processed

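RNA had been taken from isolated glomeruli and renal cortex with a Qiagen RNeasy kit and sequenced from SMARTER mRNA-Seq libraries, per the labels' protocols. The authors deposited whole-number read counts per gene symbol for glomeruli and, for cortex, whole numbers per Ensembl identifier that from the values are estimated counts made whole, and FPKM values for both. The submitters' processing notes name GRCm38 and mm10. Not given in the sources used here are the aligner, the counting tool, the annotation and the strand setting. The 10 genes and the 14 gene lists were chosen with earlier results of these data known, and so was the step that summed near-identical glomerular libraries (chi-square per gene more than 5 times below that of every other pair of their group).

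Each tissue was fitted alone with edgeR 4.0.16 in R 4.3.3 (filterByExpr, TMM scaling, robust glmQLFit, glmQLFTest, Benjamini-Hochberg adjustment over all genes tested, threshold 0.05), and the script was tested on simulated counts. Alternatives used DESeq2 1.42.0, limma 3.58.1 on log2(FPKM + 1) and log2(FPKM + 0.1), other scalings, no filter and left-out libraries. Tables were joined on GENCODE M21 names and RefSeq synonyms. Of 24722 glomerular symbols 19765 matched directly and 320 by synonym. The 4637 that did not match held 4.12% of counts. As the tables were made separately, between-tissue levels were not tested and a gene's level can differ with the annotation. Same-numbered libraries did not deviate together, with correlations of -0.099 to 0.143 in glomeruli and -0.259 to 0.04 in cortex. The named genes were the 10, up to 4 genes a list with the smallest adjusted p in glomeruli and 2 in cortex, and the 10 most like the set. Other genes named were chosen after their values were seen.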

Additional observations from a re-analysis of the deposited data

Results flagged for a closer look

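In diabetic cortex, 3 of the 10 genes had 1 library set apart above the other 3, which lay close together. Psca was at 1.587 CPM in library 1, with the others at 0.761 to 0.877 CPM. Kdf1 was at 34.02 CPM in library 2, with the others at 29.8 to 30.4 CPM. Fut1 was at 0.4853 CPM in library 3, with the others at 0.0841 to 0.130 CPM. A gap of this kind arises by chance in about 1 in 20 groups, and the 3 genes were each set apart by a different library. B4galnt3 moved in opposite directions in the 2 tissues. Every diabetic glomerular sample lay above every control sample, and every diabetic cortex library lay below every control library, with a cortex log2 fold change of -0.56. The difference between tissues was not tested.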

How the results depend on the processing

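The glomerular values had chosen the 10 genes, so their calls there under the alternatives say nothing about stability. In cortex B4galnt3 stayed lower under each of its 16 settings (log2 fold change -0.64 to -0.46, adjusted p 3.76e-05 to 0.0167 over edgeR, DESeq2 and limma). Genes called in glomeruli numbered 5716, and 2293 with diabetic library 2 alone, where the diabetic group had 1 sample, assumed to vary as the controls do. In cortex they numbered 3856, and 2375 with the replicate number as a block, 2527 to 4715 when each library was left out in turn. Genes of the set called in cortex numbered 1, and 1 to 2 when each library was left out. Genes of the set above diabetic cortex numbered 7, and 1 among the 4 that reach 0.1 FPKM there. The replicate block changed no call among the genes of the set in cortex, and replicate numbers were not shown to pair samples. Scaling by library totals made 72.5% of glomerular calls higher, against 51.6% with TMM, and moved the median of all genes to 0.20 on the log2 scale. In cortex 63.5% of calls were then higher, against 53.7%. With FPKM these shares were 70.8 to 71.5% in glomeruli and 65.3 to 65.4% in cortex. In cortex Plekhs1 and Entpd3 had 24 to 40 counts a group and standard errors of 1.23 and 0.83 on the log2 scale, so depth limits what could be called for them.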

Other observations

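Foxj1, the master regulator gene of motile cilia, was the only listed forkhead gene called higher in both tissues. It rose to 80.0 ± 15.0 CPM in diabetic glomeruli, against 4.86 ± 2.19 CPM in control glomeruli (log2 fold change 4.05 ± 0.34, adjusted p = 0.000653, edgeR, n = 3 each). It rose to 2.00 ± 0.811 CPM in diabetic cortex, against 0.553 ± 0.256 CPM in control cortex (1.86 ± 0.39, adjusted p = 0.00962, edgeR, n = 4 each). Its diabetic glomerular values of 80.0, 95.1 and 65.0 CPM in samples 1+4, 2 and 3 were again highest in sample 2 and lowest in sample 3. Ivl, which encodes involucrin of the cornified envelope, had 1069 counts over the diabetic glomerular group and 7 over the control group.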
